A study of Mus musculus with 8 samples.

Results

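The 10 genes studied here belong to fibroblast growth factor (FGF) signaling and were taken from the mouse colon libraries by an exact match of their symbols: the ligands Fgf2, Fgf7, Fgf9, Fgf10 and Fgf18, the receptors Fgfr1, Fgfr2, Fgfr3 and Fgfr4, and the secreted carrier Fgfbp1. All 10 members were found among the 32285 genes of the count tables. The data are single-cell RNA sequencing of 8 libraries from C57BL/6 mice, 2 each of 4 groups. Assembloids are organoids of colon epithelium that were placed into Matrigel with pre-cultured primary stromal cells and grown without Wnt surrogate, CHIR-99021, R-spondin 1 and noggin, and they gave the assembloid stromal and the assembloid epithelial libraries. Organoids are the same kind of epithelium grown alone in full medium, which holds those 4 factors, and tissue epithelium was taken from the colon itself. No mutation or transgene is labelled in any of the groups. The stromal cells had grown on plastic with serum before assembly, which limits them as a model of the stroma in place, and the p-values measure the spread within pairs of libraries. The study's methods call the libraries of a group biological replicates and take the stromal ones from more than 1 mouse, but the labels do not say which animal gave which library.

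FGF ligands are secreted proteins that bind receptor tyrosine kinases together with heparan sulfate, and the receptors signal mainly through the RAS and ERK cascade. FGF7 and FGF10 are typically made by mesenchymal cells and act on the epithelial splice form of FGFR2, while the mesenchymal splice forms of FGFR1 and FGFR2 respond to ligands such as FGF2 and FGF9. FGFBP1 releases FGFs from the matrix, and the SPRY, SPRED, DUSP and ETV genes are transcribed in response to ERK activity or restrain it. The libraries count the 3′ ends of transcripts, so the splice forms of a receptor could not be told apart.

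Levels are given as UMIs (unique molecular identifiers, one for each captured transcript) per 1000000 UMIs of the summed cells (CPM). After removal of cells with fewer than 500 genes or more than 10% mitochondrial counts, 4310 to 29410 cells and 36970661 to 187583982 UMIs per library remained, which was 25.4% to 96.1% of the barcodes and lowest in the 2 tissue libraries. Library pairs shared 13 to 141 barcodes, at most 0.98% of the smaller library. Epcam was at 941 to 2088 CPM in the 6 epithelial libraries and at 111 and 23.8 CPM in the stromal ones. The stromal matrices came from Cell Ranger 6.0.1 and the epithelial ones from 7.1.0, so tests were run only among libraries of one version. Cell classes were gated by marker genes, none of which is a member, and a class is named as "-like" because the gate is its only support.

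CPM values and fold changes are on different scales. CPM are scaled by the total UMIs of a sum, while the fitted log2 fold changes also carry TMM factors, which set the bulk of genes near no change. For whole epithelium TMM moved log2 fold changes by a median of 0.39 in assembloids against tissue, 0.23 in organoids against tissue and −0.16 in organoids against assembloids. In cycling-like cells the shifts were 0.61, 0.46 and −0.15, and between colonocyte-like and cycling-like cells they were 0.60 in tissue and 0.43 in assembloids. They were −0.040 and −0.023 in the comparisons that involve fibroblasts. A refit with library totals in place of TMM was added after seeing the data, and its value is given wherever it changed the direction or call of a member with 10 UMIs or more on both sides.

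Fgf7 and Fgf10 were higher in fibroblasts than in epithelial cells in both kinds of assembloid library. For that reason the 250 bases before their RefSeq start sites (GRCm38.p6, 5′ to 3′ on the plus strand of each gene) are shown, with matches to a fixed set of promoter motifs in capitals. Fgf7 lies on chromosome 2 (126034658 to 126091185) and Fgf10 on chromosome 13 (118669791 to 118792115) in GENCODE M21 on GRCm38, and neither window holds an annotated exon base. The Fgf7 window ends just before the GENCODE gene, whereas the Fgf10 window lies inside it, because the RefSeq start used for Fgf10 is not the GENCODE start.
Fgf7 chr2:126034408-126034657: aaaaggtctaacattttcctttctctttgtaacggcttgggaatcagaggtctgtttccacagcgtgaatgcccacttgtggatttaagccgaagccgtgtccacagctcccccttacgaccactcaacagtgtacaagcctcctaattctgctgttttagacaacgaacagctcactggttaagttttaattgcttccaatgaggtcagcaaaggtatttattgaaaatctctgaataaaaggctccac
Fgf10 chr13:118714449-118714698: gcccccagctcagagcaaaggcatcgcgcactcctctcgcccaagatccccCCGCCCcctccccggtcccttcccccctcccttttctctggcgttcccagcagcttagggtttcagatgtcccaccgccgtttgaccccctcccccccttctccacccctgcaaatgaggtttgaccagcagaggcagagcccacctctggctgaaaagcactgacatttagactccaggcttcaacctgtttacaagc
The letters searched on both strands were the TATA box (TATAAA), the GC box (GGGCGG), the AP-1 site (TGACTCA), the E-box (CACGTG), the TEAD site (GGAATG), the TCF core (CTTTGA) and the CRE (TGACGTCA). The Fgf7 window held none of them and the Fgf10 window held 1 GC box, on the reverse strand, a motif present in 32.74% of 32851 windows of this length. GC content was 43.6% for Fgf7 and 61.2% for Fgf10, beside a median of 52.4% over all windows.

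The ligands Fgf7, Fgf10 and Fgf2, the last a ligand of several receptors, were highest in fibroblasts and smooth muscle-like cells of the stromal libraries. Fgf7 was at 91.0 CPM in the fibroblasts of stromal replicate 1 and at 91.8 CPM in those of replicate 2. Fgf2 was at 81.6 and 73.2 CPM and Fgf10 at 45.0 and 62.6 CPM in the same cells. Each of the 3 was lower in every stromal class that was neither fibroblast nor smooth muscle, where Fgf7 ranged from 1.7 to 26.1 CPM and Fgf10 from 2.63 to 21.5 CPM. Smooth muscle-like cells (112 and 82 cells) had 79.8 and 69.1 CPM of Fgf7, 69.8 and 70.8 CPM of Fgf2 and 23.01 and 18.4 CPM of Fgf10. Their Fgf2 level was thus near that of the fibroblasts as a whole, and they carried 6466 and 7741 CPM of the 6 fibroblast markers. The epithelial and squamous cells of these libraries carried 454 to 1700 CPM of the 6 fibroblast markers, beside 7720 and 11082 CPM in the fibroblasts, and the part of that RNA in their ligand levels was not tested. Fgf9 and Fgf18, which in other tissues are made by epithelia or by cartilage and lung mesenchyme, stayed at 1.08 and 1.48 CPM and at 0.457 and 0.236 CPM in fibroblasts.

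Fibroblasts were then divided by their markers into telocyte-like cells (431 and 593 cells, BMP-rich subepithelial fibroblasts such as those marked by Foxl1) and trophocyte-like cells (2701 and 3760 cells, the Cd34 and Grem1 fibroblasts found below the crypts). All 3 stromal ligands were lower in telocyte-like than in trophocyte-like cells in both libraries. Against the fibroblasts of neither class (4476 and 4198 cells), telocyte-like cells had 0.588 and 0.465 times the Fgf2 and 0.719 and 0.595 times the Fgf10. For Fgf7 the ratios were 1.12 and 0.794, so it was not lower in replicate 1. The ratios to these other fibroblasts were not tested. Fgf2 had 42.0 and 29.3 CPM in telocyte-like cells and 105 and 94.9 CPM in trophocyte-like cells, a log2 fold change of −1.55 ± 0.19 (SE; edgeR quasi-likelihood test with the library as a block, adjusted p = 0.000213). Fgf10 had 28.3 and 35.4 CPM beside 57.0 and 72.2 CPM (log2 fold change −1.06 ± 0.13, adjusted p = 0.000213). Fgf7 had 84.4 and 63.2 CPM beside 117 and 113 CPM, the smallest of the 3 differences (log2 fold change −0.69 ± 0.14, adjusted p = 0.00314).

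The receptors split in opposite directions between the same classes. Fgfr1, the main mesenchymal receptor, fell from 113 and 97.7 CPM in trophocyte-like cells to 59.6 and 58.5 CPM in telocyte-like cells (log2 fold change −0.87 ± 0.097, adjusted p = 9.96e-05). Fgfr2 rose from 21.3 and 16.7 CPM to 44.2 and 45.3 CPM (log2 fold change 1.20 ± 0.14, adjusted p = 0.000156). Fgfr4 also rose (log2 fold change 2.93 ± 0.61, adjusted p = 0.00489), on 35 UMIs in telocyte-like cells and 21 in trophocyte-like cells. Against the fibroblasts of neither class, telocyte-like cells had 2.48 and 0.918 times the Fgfr4, so the libraries went opposite ways. The same ratios were 1.69 and 1.34 for Fgfr2 and 0.673 and 0.727 for Fgfr1, and none of them was tested. Fgfbp1 did not pass the test (0.58 ± 0.44, adjusted p = 0.335). Of the 8 members tested, 2 were higher and 5 lower, beside a background of 17.6% of genes higher and 17.5% lower, 35.1% in all, over 13873 genes. Fgf9 was among the 5, with 8 UMIs in telocyte-like cells, and no fold is given for it. The telocyte and trophocyte marker levels form a range: 1784 and 1718 cells lay within 1.5-fold of the telocyte limit. Cells that passed the telocyte gate with 500 CPM or more of the trophocyte markers were put in neither class. The comparison thus sets cells chosen from opposite ends of that range against each other.

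**Figure D1:**
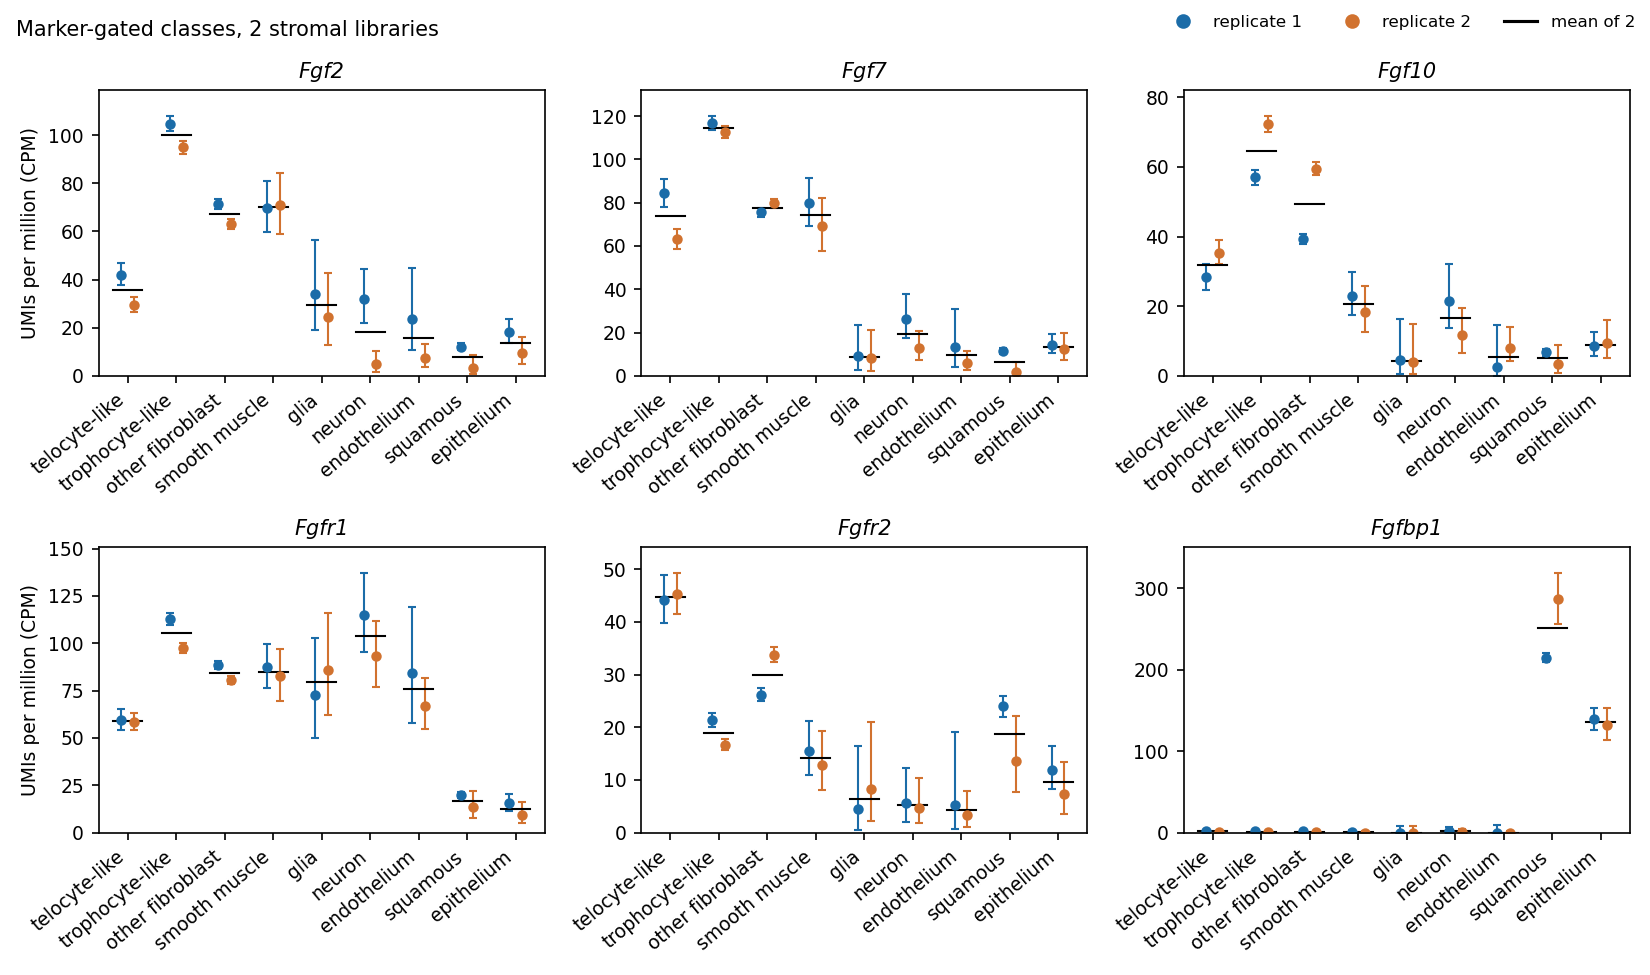
Levels of 6 members in CPM (linear axes from 0) in 9 marker-gated classes of the 2 stromal libraries, with 1 point per library, its exact Poisson 95% interval and a line at the mean. Fgf2, Fgf7 and Fgf10 were highest in trophocyte-like cells, Fgfr2 in telocyte-like cells, and Fgfbp1 was at 133 CPM or more only in the squamous and epithelial classes.

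Among 12 feedback and ERK target genes, 3 were higher and 3 lower in telocyte-like cells, beside 17.6% of all genes higher and 17.5% lower. Spry4, an inhibitor of receptor tyrosine kinase signaling, had 43.0 and 50.6 CPM beside 15.7 and 13.9 CPM (log2 fold change 1.62 ± 0.12, adjusted p = 4.86e-06). Spry1 (log2 fold change 1.41 ± 0.19, adjusted p = 0.00032) and the transcription factor Etv4 (1.04 ± 0.12, adjusted p = 0.000159) were higher too, whereas the ERK phosphatase Dusp4 was lower (−1.01 ± 0.17, adjusted p = 0.00135). The heparan sulfate proteoglycan Sdc1 was higher at 213 and 189 CPM beside 85.1 and 54.8 CPM. The extracellular sulfatase Sulf2 was lower, at 19.5 and 11.4 CPM beside 40.2 and 33.8 CPM. The hormone-like ligand Fgf23 was lower (−2.66 ± 0.33, adjusted p = 0.000209) on 16 UMIs beside 505, and the ligand Fgf1 higher (1.67 ± 0.41, adjusted p = 0.0107) on 28 beside 44. Other named genes that passed were Fgf12, higher, and Fgf11, Flrt2 and Gpc3, lower. Of 12 tested coreceptors and binding proteins 3 were higher and 6 lower, of 10 heparan sulfate enzymes 1 and 3, and of 11 adaptors 0 and 4, with list medians from −0.13 to −0.33 on the log2 scale beside −0.032 over all genes. The shares of the last 2 lists that were higher lay under that of all genes, and nothing is read from such small lists.

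Fgfr1 was also counted in other stromal classes, at 115 and 93.1 CPM in neuron-like cells, 72.7 and 85.9 CPM in glia-like cells and 84.3 and 66.9 CPM in endothelium-like cells. These levels overlapped those of the fibroblast classes. The same classes carried fibroblast RNA, with 2757 and 1717 CPM of the 6 markers in neuron-like, 1880 and 2695 CPM in glia-like and 3676 and 1402 CPM in endothelium-like cells. Per 1000 of these marker UMIs, Fgfr1 had 41.7 and 54.2 UMIs in neuron-like and 38.7 and 31.9 in glia-like cells, beside 12.4 and 7.73 in fibroblasts. Fibroblasts were gated on these same markers, which lowers their ratio, and the part of fibroblast RNA in these levels was not tested. Squamous and epithelial cells had 9.42 to 19.8 CPM. Proliferation went with lower ligand levels: fibroblasts that passed the cycling gate had 0.612 and 0.628 times the Fgf2, 0.771 and 0.698 times the Fgf7 and 0.574 and 0.473 times the Fgf10 of the other fibroblasts of their library, while Fgfr1 was at 0.862 and 0.864 times. These ratios within libraries were not tested. Fgfbp1 differed between the stromal libraries taken whole, at 35.1 and 3.93 CPM, and 871 and 37 of their cells were squamous; within squamous cells it was at 215 and 286 CPM, and in fibroblasts at 1.54 and 0.206 CPM.

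The assembloid epithelial libraries still held cells gated as fibroblasts, 2995 of 29410 cells and 618 of 7722 cells. Ligand and epithelial cells could thus be set side by side within a library. The gated fibroblasts also carried RNA of epithelial markers, given below with Fgfr2, and 2886 and 106 cells lay within 1.5-fold of the gate's limit. The part of epithelial RNA in their levels of Fgfr2, Fgfr4 and Fgfbp1 was not tested. Fgf7 had 95.1 and 184 CPM in these fibroblasts and 2.42 and 0.665 CPM in epithelial cells. Fgf10 had 124 and 189 CPM beside 3.59 and 0.843 CPM, and Fgf2 had 32.4 and 56.2 CPM beside 0.986 and 0.318 CPM. Fgfr1 was likewise higher in fibroblasts, at 86.9 and 159 CPM beside 5.72 and 2.14 CPM. The log2 fold changes were 6.64 ± 0.98 for Fgf7, 6.40 ± 0.93 for Fgf10, 6.16 ± 0.83 for Fgf2 and 5.04 ± 0.76 for Fgfr1. With 1 residual degree of freedom, the edgeR quasi-likelihood test called 0% of 17918 genes, of which 5346 had an unadjusted p under 0.05, and the adjusted p was 0.0753 for the 3 ligands and 0.0755 for Fgfr1, while DESeq2 called 3492 genes. The other members with 10 UMIs or more in both classes had adjusted p-values of 0.154 to 0.964, among them Fgfr2 (−0.013 ± 0.18, and 0.0093 with library totals), Fgfr4 (−1.61 ± 0.53) and Fgfbp1 (−1.45 ± 0.43), of which DESeq2 called the last 2 (adjusted p = 0.0263 and 0.0165). In organoid and tissue epithelium, which lack fibroblast RNA (at most 0.0541 CPM of the 6 markers), Fgf7 was at 0.096 to 0.217 CPM and Fgf10 at 0.0426 to 0.0812 CPM.

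Fibroblast RNA also lay outside the fibroblast gate, at 132 and 26.8 CPM of the 6 markers in the epithelial cells of assembloids. Per 1000 of these marker UMIs, fibroblasts had 16.9 and 18.3 UMIs of Fgf7 and epithelial cells had 18.3 and 24.8. For Fgf10 the values were 22.1 and 18.8 in fibroblasts and 27.2 and 31.4 in epithelial cells, and for Fgf2 they were 5.76 and 5.60 beside 7.48 and 11.9. Over all epithelial cells the 3 ligands were thus higher per marker UMI than in fibroblasts in both libraries, but not in every class, since cycling-like cells had 16.6 and 11.7 of Fgf7 (41 and 6 UMIs). The 6 markers are also those of the fibroblast gate. Cells outside the gate were therefore selected for few of these UMIs, which raises their ratios whatever the source of the RNA. Fgfr1 had 15.5 and 15.8 UMIs per 1000 in fibroblasts, 43.4 and 79.7 in epithelial cells and 105 and 182 in cycling-like epithelial cells. Cycling-like cells of assembloids held 7.41 and 4.91 CPM of Fgfr1 (258 and 93 UMIs) and colonocyte-like cells 1.64 and 1.17 CPM, and the difference passed the test (log2 fold change −1.76 ± 0.51, adjusted p = 0.0191). It fell short of the threshold without either assembloid library (adjusted p = 0.164 and 0.0563) and at a limit of 5% mitochondrial counts (0.0668). Tissue cycling-like cells held 0 Fgfr1 UMIs, which allows up to 0.871 CPM in replicate 1 and 1.57 CPM in replicate 2. Restricting the assembloid epithelium to cells without any UMI of the 6 markers left 3.86 and 1.33 CPM of Fgfr1 and 0.803 and 0.258 CPM of Fgf7, above the organoid and tissue levels of both genes. The part of fibroblast RNA in the epithelial levels was not tested. In the assembloid comparison of colonocyte-like with cycling-like cells, Fgf7 (0.60 ± 0.91, adjusted p = 0.636) and Fgf10 (−1.48 ± 0.67, adjusted p = 0.0988, and 0.0421 with library totals) did not pass.

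**Figure D2:**
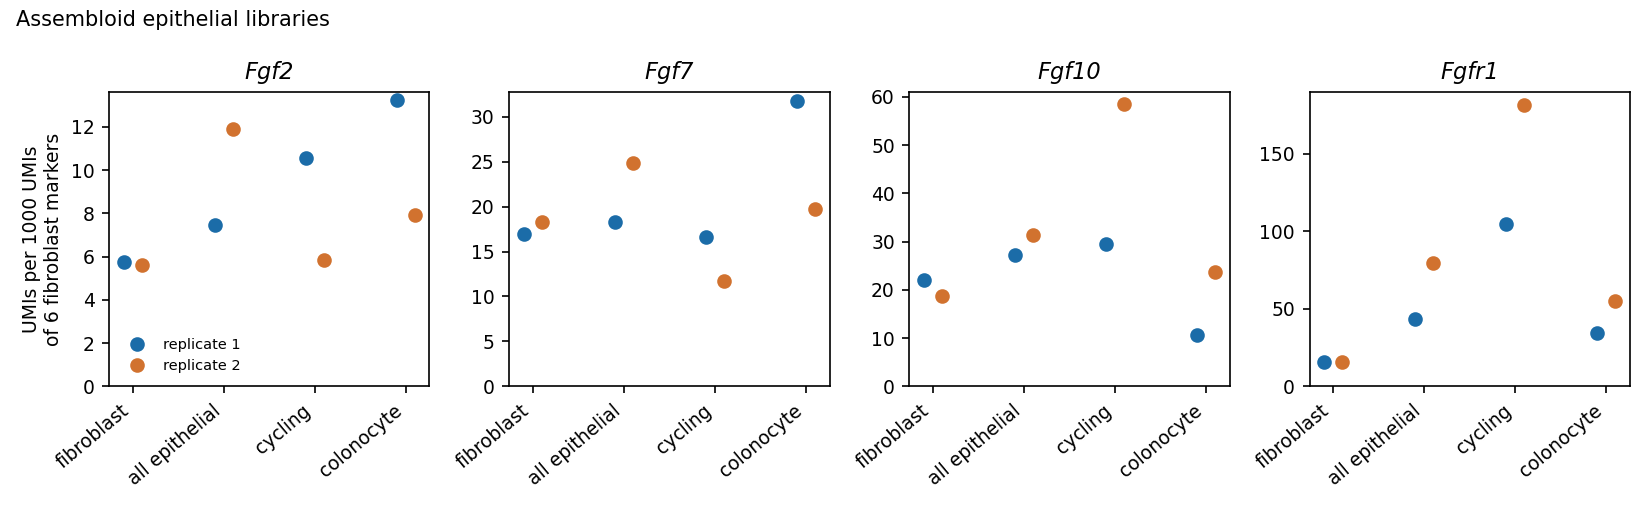
UMIs of Fgf2, Fgf7, Fgf10 and Fgfr1 per 1000 UMIs of 6 fibroblast markers (linear axes from 0) in 4 cell classes of the 2 assembloid epithelial libraries, with 1 point per library. Fgfr1 stood at 15.5 and 15.8 in fibroblasts and at 105 and 182 in cycling-like cells. The same 6 markers define the fibroblast gate, which lowers the ratios of fibroblasts and raises those of the other classes.

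Fgfr2, the receptor of FGF7 and FGF10 on epithelia, was lower in organoids than in the other epithelia. It had 175 and 137 CPM in the epithelial cells of assembloids, 55.6 and 80.9 CPM in organoids and 142 and 115 CPM in tissue. The organoid libraries lay under all 4 others. The log2 fold change of organoids was −1.39 ± 0.26 against assembloids (adjusted p = 0.00257) and −0.70 ± 0.25 against tissue (adjusted p = 0.049), a call that was lost with the replicate block (adjusted p = 0.0516), with no filter on low counts (0.0572), with all passing cells kept (0.0517), in epithelial cells without a fibroblast marker UMI (0.0525) and without any 1 of the organoid or tissue libraries (adjusted p = 0.0689 to 0.321). Assembloids and tissue did not differ past the threshold (0.68 ± 0.25, adjusted p = 0.0522), although DESeq2 called the same difference (adjusted p = 0.0121). Within cycling-like cells, Fgfr2 had 206 and 187 CPM in assembloids, 54.1 and 81.8 CPM in organoids and 180 and 167 CPM in tissue. There organoids were lower than assembloids (−1.72 ± 0.26, adjusted p = 0.000188) and than tissue (−0.91 ± 0.26, adjusted p = 0.0135), and the second call was lost at 5% mitochondrial counts (0.118) and without organoid replicate 1 (0.0933) or either tissue library (0.12 and 0.0977). The CPM of assembloids and tissue in these cells lay close together, and the fitted difference rests on the TMM factors. It was 0.81 ± 0.25 with them (adjusted p = 0.0216) and 0.18 with library totals (adjusted p = 0.591). With TMM it was also lost under other settings (adjusted p = 0.321 with cells of up to 20% mitochondrial counts, 0.195 without assembloid replicate 1, and 0.165 and 0.162 without tissue replicate 1 and 2).

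Fgfr2 was lower in colonocyte-like than in cycling-like cells. Colonocyte-like cells had 78.5 and 58.1 CPM in tissue and 101 and 70.5 CPM in assembloids. Their log2 fold change against cycling-like cells was −0.74 ± 0.26 in tissue (adjusted p = 0.0351) and −0.78 ± 0.25 in assembloids (adjusted p = 0.026), and the difference between the 2 was −0.041 ± 0.36 (adjusted p = 0.991). Goblet-like cells of tissue had 170 and 129 CPM and enteroendocrine-like cells 140 and 189 CPM, beside the 180 and 167 CPM of cycling-like cells, so the enteroendocrine values overlapped them. In assembloids goblet-like cells had 167 and 79.1 CPM and enteroendocrine-like cells 152 and 96.5 CPM, below the 206 and 187 CPM of cycling-like cells in both libraries. Stem-like cells of tissue (114 and 73 cells) had 299 and 255 CPM, above every other named class of tissue in the same library. Without either tissue library, or at a limit of 5% mitochondrial counts, the tissue difference missed the threshold (adjusted p = 0.145 to 0.373). The assembloid difference missed it without assembloid replicate 1 or 2 (adjusted p = 0.103 and 0.144) and without tissue replicate 2 (0.0648).

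The Fgfr2 counts of the epithelial libraries carry a limit of annotation. Of 27 annotated transcripts of Fgfr2, 1 spans 2960.9 kb of chromosome 7 (130162451 to 133123350) and the longest of the others 103.8 kb, and 36 other genes on the same strand overlap the long span. Fibroblasts of the assembloid epithelial libraries held 168 and 145 CPM of Fgfr2 and macrophage-like cells 270 and 170 CPM, with 5748 and 2010 CPM and 5493 and 2675 CPM of the 6 epithelial markers, beside 9947 and 11515 CPM in epithelial cells. Their Fgfr2 level was thus near or above that of the epithelial cells. In the stromal libraries, counted with the other version, cells gated as epithelium had 11.8 and 7.25 CPM of Fgfr2 but 139 and 133 CPM of Fgfbp1. Whether reads in introns were counted is not given in the sources used here, and the counting version cannot be told apart from the kind of library.

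Fgfr3, a receptor known for restraining growth of cartilage and present in some epithelia, was far higher in tissue than in either culture. It had 24.9 and 23.6 CPM in tissue, 0.343 and 0.768 CPM in assembloids and 1.07 and 1.76 CPM in organoids. The tissue libraries lay far above the 4 cultured ones. The log2 fold change was −5.10 ± 0.36 for assembloids (adjusted p = 3.22e-05) and −3.90 ± 0.33 for organoids (adjusted p = 5.81e-05) against tissue. Organoids exceeded assembloids by 1.21 ± 0.33 (adjusted p = 0.0138), but not past the threshold without assembloid replicate 1 (0.0687) or organoid replicate 2 (0.0692). Within cycling-like cells the level was at 0.374 and 0.687 CPM in assembloids, 0.717 and 1.23 CPM in organoids and 16.6 and 22.5 CPM in tissue. There assembloids (−4.62 ± 0.46, adjusted p = 1.15e-05) and organoids (−3.88 ± 0.43, adjusted p = 2.46e-05) were both below tissue, and organoids did not differ from assembloids past the threshold (0.74 ± 0.44, adjusted p = 0.183). Goblet-like cells had the highest level of the tissue classes shown, 53.5 and 50.01 CPM beside 7.43 and 6.30 CPM in colonocyte-like cells, a ratio of 7.20 and 7.94. Goblet-like cells of assembloids had 4.33 and 7.56 CPM, on 9 and 33 UMIs, beside 0.127 and 0.334 CPM in colonocyte-like cells. Goblet-like cells made up 562 of 4692 and 529 of 4310 tissue cells, 228 of 29410 and 200 of 7722 assembloid cells, and 5 and 4 organoid cells. Tissue stood above assembloids within goblet-like, colonocyte-like and cycling-like cells alike. Between colonocyte-like and cycling-like cells of tissue Fgfr3 differed by −0.89 ± 0.40 (adjusted p = 0.092), which became −1.50 with library totals (adjusted p = 0.0137) and passed without assembloid replicate 1 (0.0377).

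Fgfr4, a receptor that pairs with the coreceptor KLB, differed past the threshold in none of the 3 comparisons of whole epithelium. It had 11.8 and 11.5 CPM in assembloids, 12.9 and 15.7 CPM in organoids and 15.0 and 10.9 CPM in tissue. The log2 fold changes were 0.24 ± 0.22 for assembloids and 0.37 ± 0.22 for organoids against tissue and 0.13 ± 0.21 for organoids against assembloids (adjusted p = 0.373, 0.19 and 0.641). With library totals the first turned to −0.15, the direction of the CPM means. In cycling-like cells the 3 differences were 0.0086 ± 0.22, −0.083 ± 0.22 and −0.092 ± 0.20 (adjusted p = 0.98, 0.796 and 0.736), and with library totals −0.60, −0.54 and 0.058. Among tissue classes it was highest in stem-like cells (48.2 and 52.7 CPM), lower in cycling-like cells (23.2 and 19.9 CPM) and lower again in colonocyte-like (5.18 and 6.03 CPM) and goblet-like cells (8.61 and 5.84 CPM). Colonocyte-like cells were lower than cycling-like cells in tissue (−1.35 ± 0.24, adjusted p = 0.000749, and 0.0706 without tissue replicate 1), while assembloids had 8.10 and 8.77 CPM beside 13.1 and 15.5 CPM (−0.33 ± 0.21, adjusted p = 0.242, and −0.76 with library totals, adjusted p = 0.0339). The difference between these 2 changes was 1.02 ± 0.33 (adjusted p = 0.106, beside 4% of genes called).

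**Figure D3:**
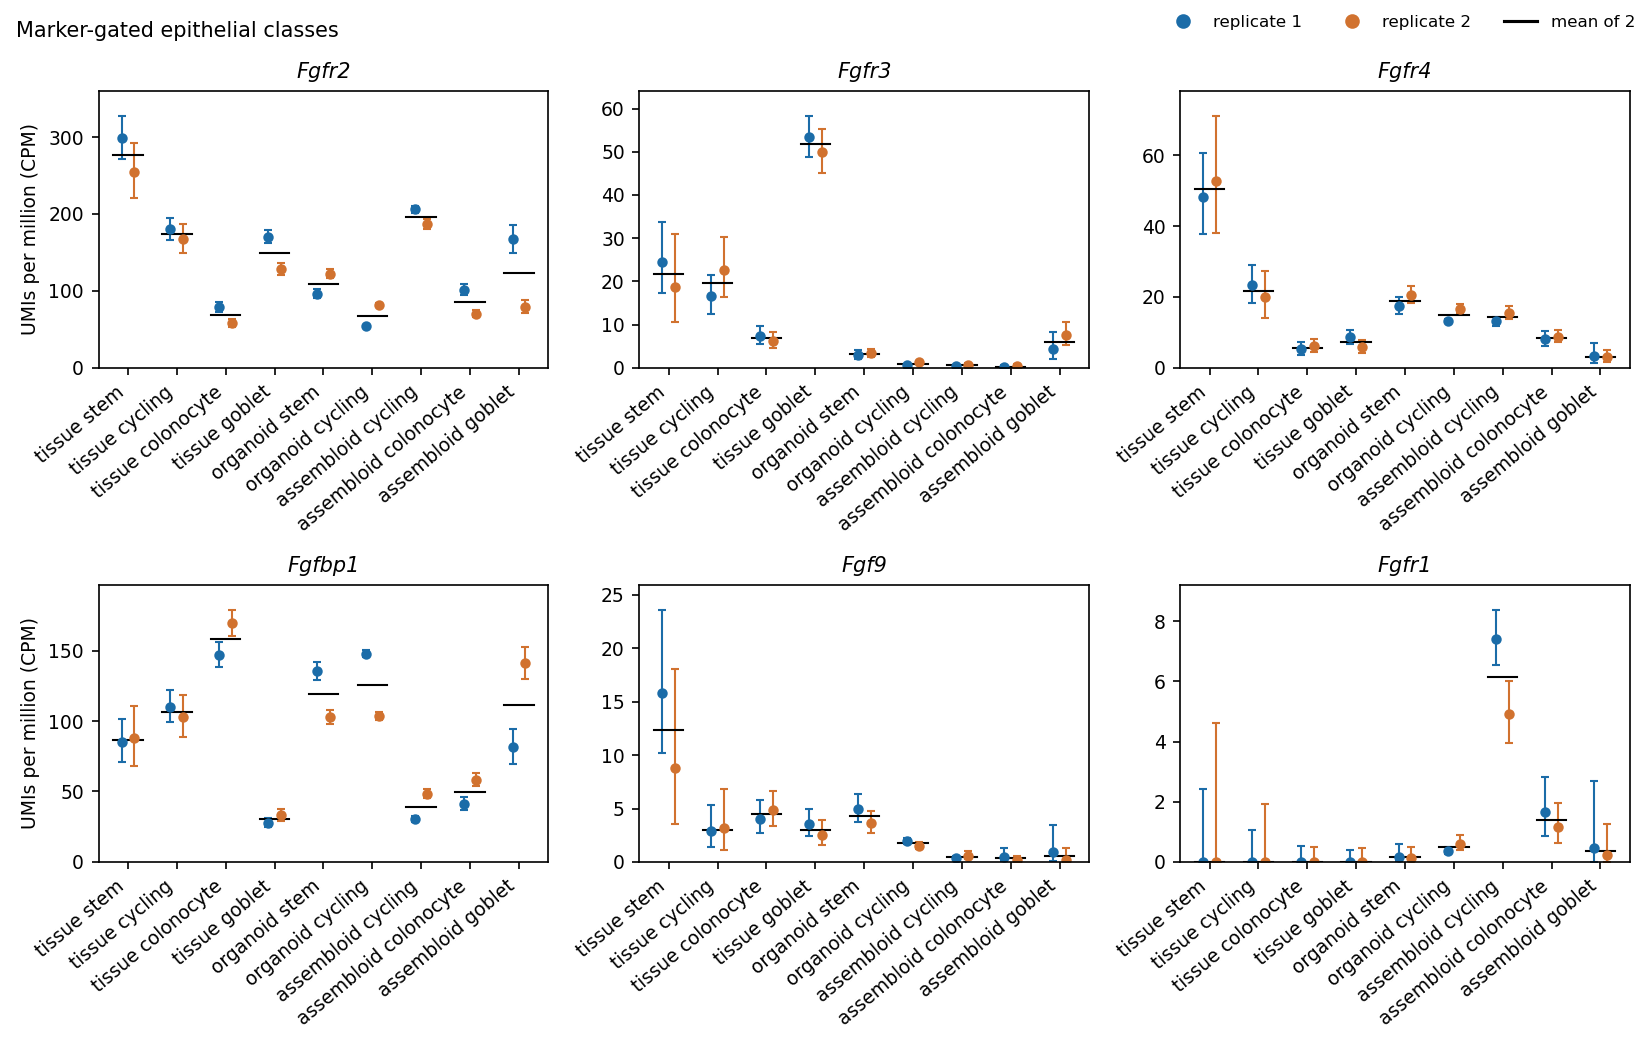
Levels of 6 members in CPM (linear axes from 0) in 9 marker-gated epithelial classes, with 1 point per library, its exact Poisson 95% interval and a line at the mean of 2 libraries. Fgfr3 reached 53.5 and 50.01 CPM in tissue goblet-like cells, and Fgfbp1 was low in goblet-like cells of tissue (28.0 and 33.3 CPM) and not in those of assembloids (81.3 and 141 CPM).

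The carrier Fgfbp1 was lower in assembloids than in organoids. It had 43.0 and 74.8 CPM in assembloids, 144 and 103 CPM in organoids and 96.9 and 107 CPM in tissue. Organoids exceeded assembloids by 0.97 ± 0.31 on the log2 scale (adjusted p = 0.0296), a call lost with cells of up to 20% mitochondrial counts (0.0592) and without any 1 library but assembloid or organoid replicate 2 (adjusted p up to 0.193), and within cycling-like cells by 1.59 ± 0.27 (adjusted p = 0.000504). Against tissue the differences over all epithelial cells did not pass, at −0.43 ± 0.31 for assembloids (adjusted p = 0.281, and −0.80 with library totals, adjusted p = 0.0391) and 0.54 ± 0.31 for organoids (adjusted p = 0.186, and 0.0359 without organoid replicate 2). Cycling-like cells of assembloids were also lower than those of tissue, at 30.5 and 48.2 CPM beside 110 and 103 CPM (−0.85 ± 0.28, adjusted p = 0.0248, and 0.0529 with cells of up to 20% mitochondrial counts). Colonocyte-like cells were higher than cycling-like cells both in tissue, at 147 and 169 CPM (1.17 ± 0.28, adjusted p = 0.00445), and in assembloids, at 41.4 and 58.5 CPM (0.80 ± 0.27, adjusted p = 0.0331). Library totals ended both calls on colonocyte-like cells (0.57 in tissue, adjusted p = 0.104, and 0.35 in assembloids, adjusted p = 0.316). Without either tissue library the adjusted p-values of the last 3 differences were between 0.104 and 0.171. Without assembloid replicate 1 or 2 the assembloid colonocyte-like difference was at 0.0781 and 0.206, without assembloid replicate 1 the difference from tissue cycling-like cells was at 0.0959, and at a limit of 5% mitochondrial counts the tissue colonocyte-like difference was at 0.431. Cycling-like cells of organoids exceeded those of tissue by 0.74 ± 0.27 (adjusted p = 0.0475), a call lost with library totals (0.24, adjusted p = 0.536), DESeq2 (0.0785), the replicate block (0.0504), 1 more marker in the gates (0.0522), a limit of 5% mitochondrial counts (0.684) and without organoid replicate 1 or either tissue library (0.241 to 0.415).

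Among the 5 ligands, Fgf9 and Fgf18 had the most counts in tissue epithelium, where Fgf7, Fgf10 and Fgf2 had 14, 6 and 5 UMIs. Fgf9 had 4.17 and 3.36 CPM in tissue, 2.06 and 1.77 CPM in organoids and 0.375 and 0.403 CPM in assembloids, and the 3 pairs of libraries did not overlap. Assembloids were lower than tissue (−2.88 ± 0.37, adjusted p = 0.000463) and than organoids, which exceeded them by 2.17 ± 0.36 (adjusted p = 0.00152). Organoids against tissue gave −0.71 ± 0.34 (adjusted p = 0.114). In cycling-like cells Fgf9 of assembloids was below that of tissue (−2.12 ± 0.61, adjusted p = 0.0133), a call lost without either tissue library (0.105 and 0.0935) and at 5% mitochondrial counts (0.426). Organoids exceeded assembloids there by 1.83 ± 0.51 (adjusted p = 0.0115, 0.0511 at 5% mitochondrial counts and 0.122 without organoid replicate 1), and organoids against tissue gave −0.29 ± 0.55 (adjusted p = 0.723). Colonocyte-like against cycling-like cells of tissue gave 1.16 ± 0.56 (adjusted p = 0.114). Stem-like cells had the highest Fgf9 of the tissue classes (15.8 and 8.78 CPM, from 24 and 7 UMIs), and stem-like cells of organoids had 4.91 and 3.60 CPM. Fgf18 had 1.26 and 0.704 CPM in tissue and 0.121 and 0.122 CPM in assembloids (−2.61 ± 0.58, adjusted p = 0.00646), from 59 and 26 UMIs and from 19 and 13 UMIs. Without tissue replicate 1 the Fgf18 difference missed the threshold (adjusted p = 0.0679). Organoids were below tissue by a log2 fold change of −1.53 ± 0.55 for Fgf18 (adjusted p = 0.0478), a call lost with DESeq2 (0.0708), with the replicate block (0.0646), with cells of up to 20% mitochondrial counts (0.0871) and without any 1 organoid or tissue library (0.057 to 0.343), and organoids against assembloids gave 1.08 ± 0.57 (adjusted p = 0.139).

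**Figure D4:**
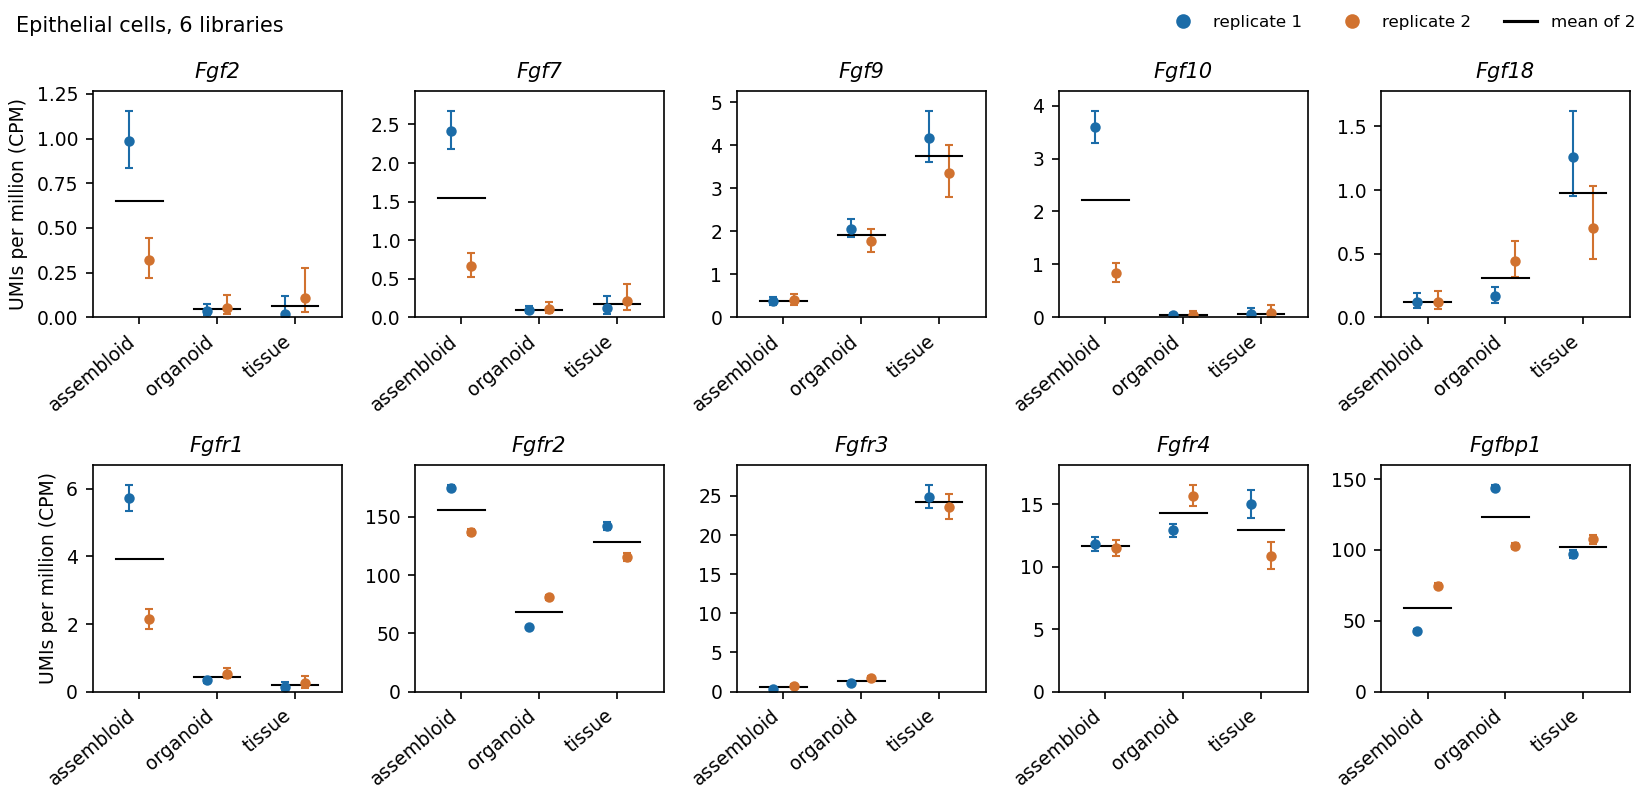
Levels of the 10 members in CPM (linear axes from 0, scaled per gene) in the epithelial cells of 6 libraries, with 1 point per library, its exact Poisson 95% interval and a line at the mean of 2. Tissue stood at 24.9 and 23.6 CPM of Fgfr3, and Fgf9 fell in order from tissue to organoids and assembloids.

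Counted over the members, 4 were higher and 3 lower in assembloid than in tissue epithelium, beside a background of 26.5% of genes higher and 23.2% lower, 49.7% in all, over 19185 genes. The 4 were Fgf2, Fgf7, Fgf10 and Fgfr1, with log2 fold changes of 3.63 ± 0.76 for Fgf7 (adjusted p = 0.00509) and 4.86 ± 0.67 for Fgfr1 (adjusted p = 0.000676). All 4 were near 0 in tissue, with 5, 14, 6 and 15 UMIs. Fgf2 and Fgf10, under 10 UMIs there, entered the fit through the assembloid libraries, and nothing is read from the count of 4. Fibroblast RNA moved with these 4, at 132 and 26.8 CPM of the 6 markers in assembloid epithelium beside at most 0.0541 CPM in tissue and organoids. In epithelial cells without a UMI of these markers (a setting chosen after seeing the data) the log2 fold change fell to 2.09 ± 0.71 for Fgf7 (adjusted p = 0.039) and to 4.27 ± 0.69 for Fgfr1 (adjusted p = 0.00149), and both remained past the threshold. The part of fibroblast RNA in the 4 calls was not tested. The same 4 genes were lower in organoids than in assembloids, with log2 fold changes of −4.12 ± 0.74 for Fgf7 (adjusted p = 0.00219), −5.72 ± 0.84 for Fgf10 (adjusted p = 0.000879), −4.05 ± 0.82 for Fgf2 (adjusted p = 0.00381, and 0.0536 without organoid replicate 1) and −3.41 ± 0.58 for Fgfr1 (adjusted p = 0.00166). These folds rest on few organoid counts, 28 UMIs of Fgf7, 13 of Fgf10, 12 of Fgf2 and 113 of Fgfr1. In organoids against tissue Fgf7 (−0.49 ± 0.81, adjusted p = 0.649) and Fgfr1 (1.45 ± 0.66, adjusted p = 0.104, and 0.029 and 0.019 without assembloid replicate 1 and 2) did not pass. In cycling-like cells of organoids against assembloids Fgfr1 gave −3.89 ± 0.51 (adjusted p = 0.000155) and Fgf7 −3.16 ± 0.91 (adjusted p = 0.0144, and 0.0749 and 0.156 without organoid replicate 1 and 2). Organoids against tissue gave 0 higher and 3 lower, beside 24.3% of genes higher and 22.9% lower, 47.3% in all. Organoids against assembloids gave 3 higher and 5 lower, beside 24.4% of genes higher and 28.5% lower, 52.9% in all. In cycling-like cells 9 members were tested, and 3 were higher and 4 lower in assembloids than in tissue, beside 26.8% of genes higher and 17.7% lower, 44.5% in all. Fgfr1, Fgf7 and Fgf10 had 351, 47 and 103 UMIs in these cells of assembloids and 0, 0 and 1 in those of tissue. These genes entered this fit through the cultured cells, and Fgfr2, described above, was also among the 3 higher members, so nothing is read from that count. Fgf18 was among the 4 lower, with 3 UMIs in assembloids and 8 in tissue, and no fold is given for it. For organoids against tissue 1 was higher and 3 lower, beside 22.4% of genes higher and 15.9% lower, 38.3% in all, and for organoids against assembloids 2 were higher and 4 lower, beside 20% of genes higher and 25.2% lower, 45.1% in all. Colonocyte-like against cycling-like cells gave 1 higher and 3 lower in tissue, beside 21.4% of genes higher and 19.8% lower, 41.1% in all, and 1 higher and 2 lower in assembloids, beside 16.9% of genes higher and 22.7% lower, 39.7% in all. The background split moved with the scaling. With library totals the share of calls that were higher went from 53.3% to 37.7% for assembloids against tissue, from 60.1% to 29.2% and from 58.5% to 27.9% for assembloids and organoids against tissue in cycling-like cells, and from 52.0% to 22.6% in tissue and 42.7% to 18.9% in assembloids for colonocyte-like cells.

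Downstream of the receptors, several ERK feedback genes were lower in organoids than in assembloids. In cycling-like cells 7 of 11 tested genes were lower and 0 higher in organoids, beside 25.2% of all genes lower and 20% higher, with a list median of −0.87 beside 0.026 over all genes. With library totals 3 of the 11 were lower and 0 higher, beside 3120 and 3352 of 14832 genes, so the share lower lay near that of all genes. The list median was then −0.75 beside 0.17 over all genes. The phosphatase Dusp4 had 4.90 and 5.68 CPM in organoids and 37.7 and 46.4 CPM in assembloids (−3.13 ± 0.26, adjusted p = 2.4e-06). Dusp5 had 2.60 and 3.99 CPM beside 23.6 and 25.4 CPM (−3.07 ± 0.27, adjusted p = 3.43e-06), and Dusp6 had 6.77 and 7.89 CPM beside 23.7 and 30.9 CPM (−2.03 ± 0.24, adjusted p = 3.38e-05). Spry4 also passed (−1.48 ± 0.48, adjusted p = 0.0232), but not with library totals (adjusted p = 0.0622). Of the same 11 genes, assembloids against tissue had 2 higher, Dusp4 (3.17 ± 0.32, adjusted p = 1.13e-05) and Dusp6 (1.22 ± 0.27, adjusted p = 0.00298, and 0.111 with library totals), and 1 lower, Etv5 (−1.45 ± 0.46, adjusted p = 0.0233), beside 26.8% of all genes higher and 17.7% lower. With library totals this balance turned to 1 higher and 3 lower, beside 2033 of 14832 genes higher and 4922 lower. Organoids against tissue had 0 higher and 4 lower, beside 22.4% and 15.9% of all genes, led by Dusp5 (−2.96 ± 0.29, adjusted p = 8.16e-06). Library totals gave 0 higher and 7 lower, beside 1331 of 14832 genes higher and 3447 lower. Other growth factors act on these genes too, and the media differed between the groups.

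**Figure D5:**
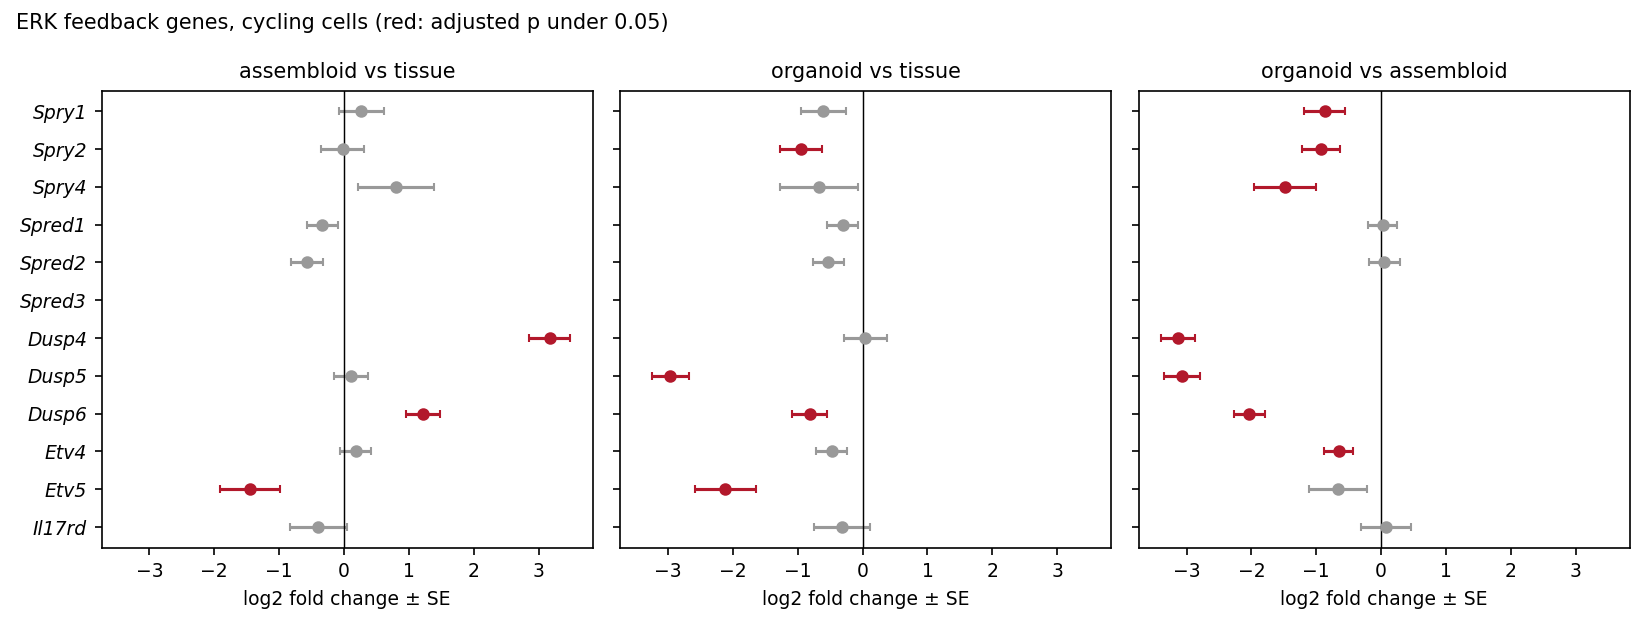
Log2 fold change ± SE of 11 tested feedback and ERK target genes in cycling-like cells for 3 comparisons, with calls at an adjusted p under 0.05 in red and the others in grey. Dusp4, Dusp5 and Dusp6 lay at −3.13, −3.07 and −2.03 in organoids against assembloids.

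The secreted ligands that are not members were mostly sparse, and those at or near 0 in tissue entered the fit through the cultured libraries, so no count of calls is given for them. Fgf21, Fgf4 and Fgf16 had 80, 78 and 45 UMIs in assembloids and 0 in tissue. Fgf23 had 2.96 and 1.34 CPM in assembloids, 0.096 and 0.086 CPM in organoids and 3 UMIs in tissue. Fgf23 was also counted in the fibroblasts of the stromal libraries, with 505 UMIs in trophocyte-like cells, and the part of fibroblast RNA in its assembloid epithelial level was not tested.

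Another of these ligands, Fgf1, which binds all 4 receptors, was at 24.2 and 19.004 CPM in tissue epithelium and 2.59 and 3.84 CPM in that of organoids (−2.54 ± 0.29, adjusted p = 0.000224). It had 22.7 and 22.01 CPM in tissue cycling-like cells, 21.6 and 18.3 CPM in those of assembloids and 2.50 and 3.13 CPM in those of organoids (−3.00 ± 0.35 against assembloids, adjusted p = 2.95e-05). Within cycling-like cells the heparan sulfate carrier Sdc2 was lower in both cultures, at 1.18 and 2.59 CPM in assembloids and 2.83 and 6.31 CPM in organoids beside 35.1 and 22.01 CPM in tissue. Sulf2 was higher in the cycling-like cells of both, at 39.6 and 42.8 CPM and 55.3 and 75.3 CPM beside 16.3 and 20.96 CPM. In the same class the FGFR-binding membrane protein Flrt3 had 28.9 and 42.1 CPM in assembloids and 4.52 and 5.39 CPM in organoids (−2.97 ± 0.22, adjusted p = 1.13e-06).

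Between colonocyte-like and cycling-like cells of tissue, 1 of the 11 tested feedback and ERK target genes was higher and 5 lower in colonocyte-like cells, beside 21.4% of all genes higher and 19.8% lower, with a list median of −0.86 beside −0.0054 over all genes. With library totals 1 was higher and 6 lower, beside 1524 of 14832 genes higher and 5212 lower. Etv4 (−3.21 ± 0.31, adjusted p = 5.7e-06), Etv5 (−3.58 ± 0.56, adjusted p = 0.00026) and Spry1 (−2.11 ± 0.41, adjusted p = 0.00124) were lower, while Dusp6 was higher (1.85 ± 0.27, adjusted p = 0.000151). In assembloids 3 were higher and 2 lower, beside 16.9% and 22.7% of all genes, with a median of −0.0082 beside −0.16 over all genes. Library totals gave 1 higher and 5 lower there, beside 1215 of 14832 genes higher and 5223 lower. With TMM, Etv4 (−1.56 ± 0.25, adjusted p = 0.000435) and Spry1 (−1.26 ± 0.35, adjusted p = 0.0124) were lower in assembloids and Dusp5 was higher (1.503 ± 0.25, adjusted p = 0.000634).

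Over all epithelial cells, the intracellular FGF homologous factor Fgf13 had 10.6 and 13.6 CPM in organoids, 3.02 and 3.19 CPM in assembloids and 0.34 and 0.352 CPM in tissue (5.34 ± 0.29 for organoids against tissue, adjusted p = 7.81e-06). Its relative Fgf12 was highest in tissue, at 5.57 and 7.96 CPM, beside 0.21 and 0.59 CPM in assembloids (−3.75 ± 0.55, adjusted p = 0.000896), and Fgf14 was also lower in both cultures than in tissue. The coreceptor Klb had 7.40 and 6.98 CPM in tissue, 1.16 and 0.553 CPM in assembloids and 0.112 and 0.108 CPM in organoids (−5.75 ± 0.53 for organoids against tissue, adjusted p = 8.03e-05). The glypican Gpc1 was higher in organoids than in tissue (4.21 ± 0.42, adjusted p = 0.000127). The docking protein Gab1 was lower in both cultures, at 11.6 and 15.9 CPM in assembloids and 9.72 and 20.2 CPM in organoids beside 60.2 and 53.5 CPM in tissue. The kinase gene Mapk3, which encodes ERK1, had 204 and 202 CPM in assembloids and 74.1 and 81.2 CPM in organoids (−1.55 ± 0.22, adjusted p = 0.000786).

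Over 38 sums of at least 50 cells of a class in a library, the genes with the levels most like those of each member were sought among 9442 genes. Fgf7 was most like Pde1a (Pearson r = 0.99), Abcc9 and Mrc2, Fgf10 most like Fndc1 (r = 0.964), Pde1a and Tgfbr3, Fgf2 most like Mmp23 (r = 0.99), Nnmt and Twist1, and Fgfr1 most like Fermt2 (r = 0.988), Lhfp and Mxra8. Fgfbp1 followed the epithelial genes Wfdc2 (r = 0.961), Krtcap3 and Ap1m2. Fgfr3 was most like Hpd (r = 0.956), Fgfr4 most like Tinag (r = 0.934), Fgfr2 most like Arih2 (r = 0.927) and Fgf9 most like Brd1 (r = 0.896). Sums of one library share its depth and counting version, and the sums span both versions, so these coefficients describe the sums only.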

How the data were processed

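Single-cell libraries made with 10x Genomics 3′ chemistry were analysed from count matrices. As deposited, the matrices hold raw UMI counts for each barcode, made with Cell Ranger 6.0.1 for stroma and 7.1.0 for epithelium as the matrix headers state; the submitters' processing notes name Cell Ranger 6 and mm10. The labels gave the groups and replicate numbers. Members, lists and tests were chosen with earlier results of these data known, and the marker gates were set after marker levels had been seen.

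A cell was kept if it had 500 or more genes and no more than 10% mitochondrial UMIs. A gate needed 3 detected markers of its list (2 for telocyte-like cells) and a minimum summed CPM. Telocyte-like cells also had to have under 500 CPM of the trophocyte markers, and trophocyte-like cells had to fail the telocyte gate. Cells passing 2 lineage gates, or in epithelial libraries the cycling gate and an epithelial lineage gate, were given no class; in epithelial libraries they stayed in the sum over all epithelial cells unless a gate they passed was fibroblast, macrophage or endothelium. No doublet caller was run. Classes under 20 cells were left out. Tissue colonocyte-like, goblet-like and cycling-like cells had 3.19 to 4.86 times the median UMIs of their library, so the gates took the deeper cells.

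UMIs were summed per library and class and tested with edgeR 4.0.16 (TMM, filterByExpr, quasi-likelihood F test, two-sided) in R 4.3.3, with Benjamini-Hochberg adjustment over all genes and calls at an adjusted p under 0.05. The 6 epithelial sums formed 1 fit over cells not gated as fibroblast, macrophage or endothelium. Cycling-like cells of 3 groups and colonocyte-like cells of tissue and assembloids formed another. The telocyte-like comparison and that of fibroblasts with epithelial cells had the library as a block. Colonocyte-like and cycling-like cells also came from the same libraries, but their fit had no library block. The p-values of their differences, and of the contrast of these between tissue and assembloids, thus treat sums of one library as independent. The replicate block tried for that fit goes by replicate number over all groups. The difference of 2 differences was added after the levels were seen. Folds are given where both arms held at least 10 UMIs. An exact permutation test of 2 against 2 libraries cannot go below 0.3333. Intervals are exact Poisson intervals, which cover counting error only, as does the limit of 3 counts for a count of 0. Members were described in the comparisons that tested them and had both arms at that minimum; of other pathway genes, called genes with an absolute log2 fold change of at least 1, at most 4 per list and comparison; of those with both arms at 10 UMIs or more, a part chosen after their values were seen is described. Scripts were tested on simulated data. Alternatives were DESeq2 1.42.0, library totals in place of TMM (added after seeing the data), no filter on low counts, the replicate block, each library left out, other limits on genes and mitochondrial counts, stricter gates and other sets of epithelial cells. Promoter sequences matched 9 of 10 members.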

Additional observations from a re-analysis of the deposited data

Results flagged for a closer look

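Fgfbp1 differed in opposite directions between goblet-like cells and both colonocyte-like and cycling-like cells of tissue and assembloids, and this was flagged because every library of one group moved one way and every library of the other the opposite way. In tissue, goblet-like cells had 28.0 and 33.3 CPM and colonocyte-like cells 147 and 169 CPM, a mean log2 ratio of −2.37. In assembloids, goblet-like cells had 81.3 and 141 CPM and colonocyte-like cells 41.4 and 58.5 CPM, a mean log2 ratio of 1.12. Against cycling-like cells the mean log2 ratios of goblet-like cells were −1.80 in tissue and 1.48 in assembloids. Enteroendocrine-like cells, at 15.6 and 26.2 CPM in tissue and 25.3 and 41.4 CPM in assembloids, lay below goblet-like cells in both groups. The difference was not tested. Goblet-like cells numbered 562 and 529 in tissue and 228 and 200 in assembloids.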

How the results depend on the processing

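The calls on members were recomputed under each alternative. Of 40 calls with at least 10 UMIs in both arms, DESeq2 lost 2, the absence of a filter on low counts 1, stricter gates 1, all passing cells kept 1, epithelial cells without a fibroblast marker UMI (chosen after seeing the data) 1, the replicate block 3, library totals in place of TMM (chosen after seeing the data) 4, a limit of 5% mitochondrial counts 7 and a limit of 20%, chosen after seeing the data, 4. Leaving out tissue replicate 1 or 2 lost 13 and 12 calls, and the other left-out libraries 3 to 8. The deviations of same-numbered epithelial libraries had correlations of −0.0219 to 0.0433 between groups. With 2 libraries a group these values cannot show whether such libraries share an animal or a run. The replicate block was used there as an alternative only, and it moved no count of called genes by over 1.5 times. The telocyte-like comparison called 1801 genes with no replicate block and 4866 with it.

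The fibroblast comparison within assembloid epithelial libraries called 0 genes, but 3492 with DESeq2, 2289 with no replicate block, 1007 with no filter on low counts, 930 with 1 more marker and 834 with at least 1000 genes per cell. Neither this comparison nor the telocyte-like one has residual degrees of freedom when a library is left out, so no test was run there. At 5% mitochondrial counts cycling-like cells gave 2982 calls for assembloids against tissue (6601 at 10%), 2186 for organoids against tissue (5677) and 3612 for colonocyte-like against cycling-like cells of tissue (6101). With libraries left out, calls ranged from 5239 to 10164 for assembloids and 5173 to 9722 for organoids against tissue, from 2566 to 6921 and 1867 to 5967 for the same in cycling-like cells, and from 1965 to 6299 in tissue and 3072 to 6351 in assembloids for colonocyte-like cells. The cause was not tested.

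Small differences changed sign. Fgfr4 in assembloids against tissue became −0.32 at 20% mitochondrial counts and, in cycling-like cells, −0.60 at 20% (adjusted p = 0.0251, edgeR), −0.44 at 5%, −0.029 with DESeq2, −0.062 with no filter, and ranged from −0.090 to 0.047 with a library left out (−0.081 without assembloid replicate 1). With library totals these became −0.15 and −0.60, and Fgfr4 of organoids against assembloids in cycling-like cells 0.058 and Fgfr2 of fibroblasts against epithelial cells 0.0093. Organoids against tissue gave −0.17 for Fgfr4 at 20%, and organoids against assembloids, in cycling-like cells, 0.032 with no filter and 0.043 at 5%. Fgf9 in organoids against tissue, cycling-like cells, became 0.18 at 5% and ranged from −0.65 to 0.014 with a library left out (highest without organoid replicate 2), and Fgfbp1 in telocyte-like cells −0.0042 at 5%. None of these was called in the reported fits.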
